A study of Rattus norvegicus with 29 samples.

Results

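The data described here are the 23 of 29 liver arrays that show whether the response to a high dose of 2,2,5,7,8-pentamethyl-6-chromanol (PMCol) differed between a short and a longer course of dosing. They were chosen by sample title as the 4 groups of that comparison. PMCol carries the chromanol ring of vitamin E without the long side chain. Male Crl:CD Sprague-Dawley rats of 6 to 7 weeks received PMCol once a day by oral gavage, or the vehicle alone, 1% methylcellulose in water, and 1 piece of the left liver lobe of each animal was hybridised to 1 Affymetrix whole-transcript array. The groups were vehicle for 7 doses with killing on day 8 (n = 6), 2000 mg/kg for 7 doses with killing on day 8 (n = 6), vehicle for 28 doses with killing on day 29 (n = 6) and 2000 mg/kg for 28 doses with killing on day 29 (n = 5). A group of 6 animals given 200 mg/kg for 28 doses took no part in the comparison and only added to the estimate of the spread. Animals of day 29 were also older than those of day 8, and each day had vehicle animals of its own age.

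The quantity tested was the interaction: the difference between 2000 mg/kg and vehicle at day 29 minus the same difference at day 8, on the log2 scale. A positive value means that the effect was more positive, or less negative, at day 29. The same number is also the day difference of the treated animals minus that of the vehicle animals, so it can arise in either arm. Group values or day differences of both arms are given below for some of the genes only. Values are log2 signals with the median of the 29 arrays set to 0 for every transcript cluster by the authors. They compare animals and give no level of expression, and no gene is set against another by its level. Differences are given ± SE from limma's moderated fit, and adjusted p is its Benjamini-Hochberg value over 27342 transcript clusters with a threshold of 0.05.

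The liver meets foreign compounds with sets of enzymes and pumps that are switched on together. NRF2 drives genes that reduce quinones and supply glutathione, and the receptors CAR and PXR drive cytochromes P450, esterases, conjugating enzymes and export pumps. Immediate early genes such as Jun are transcribed within minutes of a stimulus and fade again, while hormones such as insulin, glucocorticoids and growth hormone set the level of many secreted liver proteins. Hepatocytes make up most of the tissue, with Kupffer cells (resident macrophages), sinusoidal endothelial cells and retinol-storing stellate cells among them.

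The effect of PMCol differed between the days for 212 of 27342 clusters, which is 0.775% of those tested. Of these, 129 interactions were positive (0.472%) and 83 negative (0.304%), and 36 were at least 1 on the log2 scale, 15 positive and 21 negative. By the same test 18.6% of clusters differed between 2000 mg/kg and vehicle at day 8, 21.6% at day 29, 2.73% between vehicle animals of the 2 days and 3.07% between treated animals of the 2 days. Split by direction, 9.32% rose and 9.32% fell at day 8, 12.1% rose and 9.55% fell at day 29, 0.962% and 1.77% were higher and lower at day 29 in vehicle animals, and 1.88% and 1.19% in treated animals. The median interaction over all clusters was 0.01, and 4021 clusters had an unadjusted p under 0.05. By the estimates alone, whether or not they passed on either day, 132 of the 212 clusters had effects of opposite sign on the 2 days. Some of these estimates lay near 0 on 1 of the days, such as Igfbp1 with 0.05 at day 8. In 61 clusters the estimate had the same sign and was larger at day 29, and in 19 it had the same sign and was smaller. The day difference was larger in the treated animals for 124 of the 212 and larger in the vehicle animals for 88. These counts describe clusters picked by the interaction itself and carry no test. Counts of signs within gene lists below carry none either, as genes of a list can vary together and some sit in several lists. Counts of called genes in a list are to be set beside the shares of all clusters given here.

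**Figure D1:**
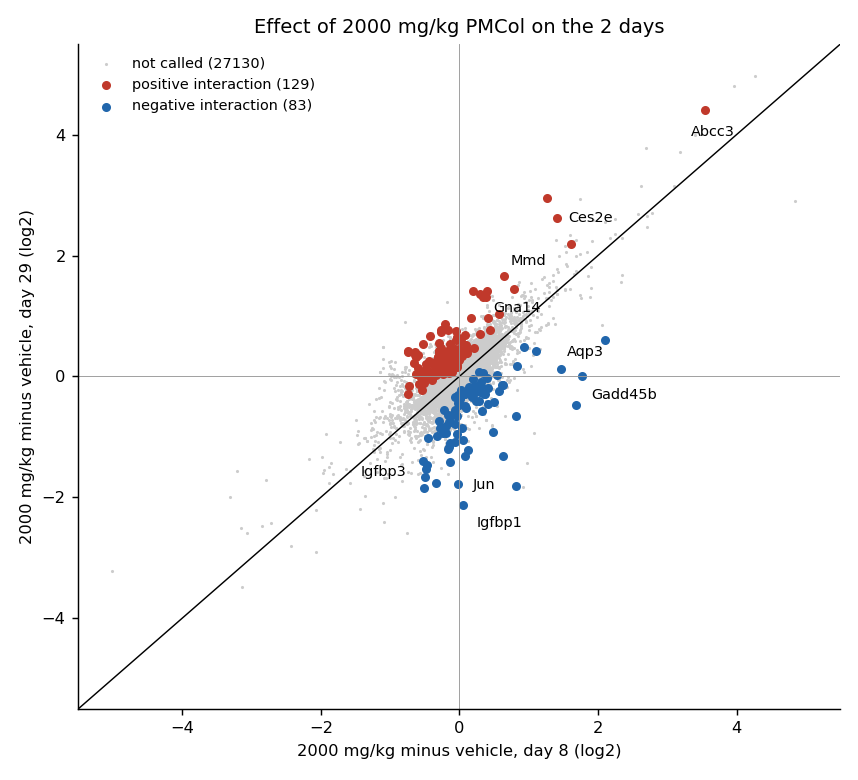
Each point is 1 transcript cluster, with the log2 difference between 2000 mg/kg PMCol and vehicle at day 8 on the horizontal axis and at day 29 on the vertical axis. The black line marks equal effects on both days, the 129 positive and 83 negative interactions past the threshold are coloured and the other clusters are grey. The coloured points lie away from the line because the interaction picked them. Among large effects that were not called, Gstp1 (2.24 at day 8 and 2.36 at day 29) lies near the line. Acot1 (4.85 and 2.90) and Dhrs7l1 (-5.01 and -3.22) lie off it.

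Some arrays of the day 29 vehicle group stood apart. The SD of an array over all clusters was 0.287 in replicate 1, against 0.170 to 0.194 in the other 5. The array labelled vehicle day 29 replicate 2 correlated over all clusters at 0.60 with the mean of the day 8 vehicle animals and at 0.25 with the mean of the other day 29 vehicle animals. For the remaining 22 animals the highest of the 4 such correlations was with their own group. Without the array labelled replicate 2 the interaction called 563 clusters, and all 212 were among them. Without replicate 1 it called 246, of which 167 were among the 212, and without both 620, of which 200 were. Leaving out each of the 23 animals in turn gave 76 calls (without 2000 mg/kg day 8 replicate 1) to 563, and 59 of the 212 clusters were called in all 23 of these fits. Albumin and 15 others of 18 measured hepatocyte genes had a stored signal of 8 or more on the log2 scale in every animal. The same held for 9 of 32 macrophage markers, 7 of 31 interferon genes and 4 of 16 bile duct markers. It held for 1 of 42 replication and mitosis genes, 0 of 29 T, B and NK markers and 0 of 14 neutrophil markers. Gna14, Sema3c, Mmd, Car2 and Nat8, described below, did not meet this mark. Whether low signal limited the calls in such lists and genes was not tested. Hepatocyte genes as a whole had a median interaction of 0.04, and 1 of the 18, Tat, was called.

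**Figure D2:**
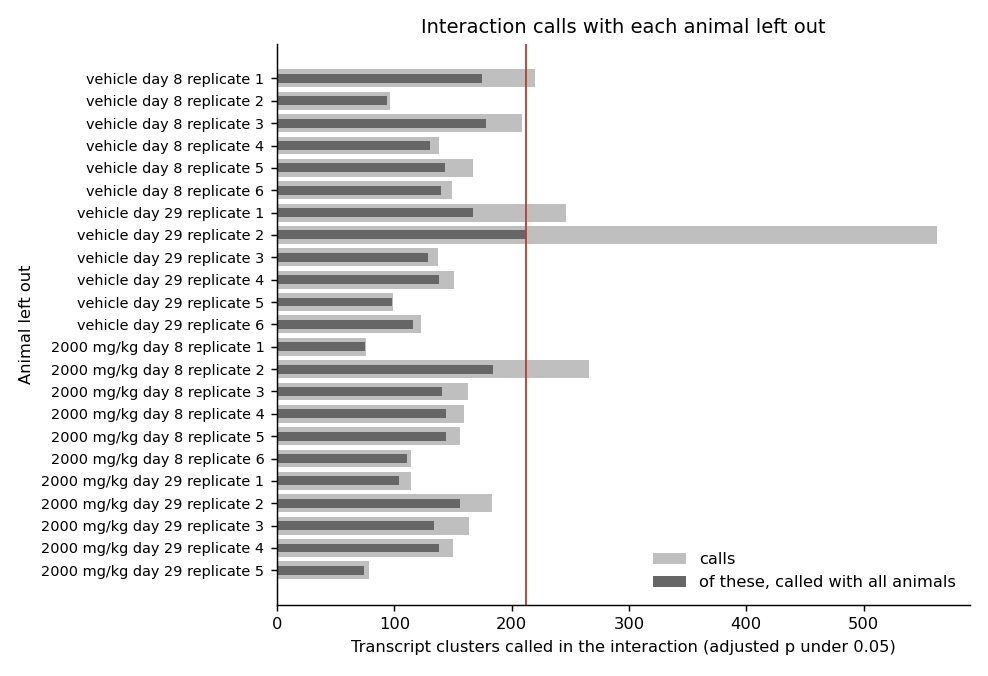
Bars give the number of transcript clusters called in the interaction with 1 animal left out, named on the vertical axis, and the darker inner bars the number of these that were also called with all animals. The red line marks the 212 calls with all animals. The count falls to 76 without 2000 mg/kg day 8 replicate 1 and reaches 563 without the array labelled vehicle day 29 replicate 2.

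Among the induced enzymes of drug metabolism, the effect on Ces2e, a carboxylesterase that hydrolyses ester drugs, differed between the days. Ces2e ran from -0.72 to 0.00 (median -0.58) in vehicle and from 0.69 to 1.15 (median 0.87) in treated animals at day 8. After 28 doses the vehicle animals lay at -1.97 to -1.18 (median -1.76) and the treated ones at 0.90, 0.86, 0.89, 0.97 and 0.91. The groups of each day did not overlap, and the vehicle animals of day 29 all lay below those of day 8, while the treated animals of both days overlapped. The rise over vehicle was 1.41 ± 0.12 at day 8 and 2.62 ± 0.12 at day 29, and the interaction of 1.21 ± 0.17 had an adjusted p = 0.00175 in limma. The related esterase Ces2a showed the same arrangement: vehicle animals averaged -0.58 ± 0.12 (SD, n = 6) at day 8 and -1.09 ± 0.15 (SD, n = 6) at day 29, and treated animals 1.03 ± 0.09 (SD, n = 6) and 1.10 ± 0.06 (SD, n = 5). Its interaction was 0.58 ± 0.10 (limma adjusted p = 0.00458). Abcc3, a pump that exports glucuronide and other conjugates toward the blood, rose by 3.54 ± 0.13 at day 8 and 4.40 ± 0.14 at day 29, an interaction of 0.86 ± 0.19 (limma adjusted p = 0.0307). Here too the treated means of both days were close, at 1.46 and 1.37, and the vehicle means differed, at -2.09 and -3.03. Ces2 genes are close paralogs, and probes may not separate them fully, which makes their individual values uncertain. The calls of Ces2e and Ces2a held in all 23 fits that left out an animal, whereas that of Abcc3 was lost in 6 (adjusted p up to 0.0666). With quantile normalization, which gives all arrays the same distribution, Abcc3 and Ces2a were not called (adjusted p = 0.519 and 0.137).

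Most other genes of these responses were not called, and several of them showed large rises on both days. Of 24 measured NRF2 targets Abcc3 alone was called, and the list's median interaction was -0.02. Nqo1, a quinone reductase, rose by 2.24 ± 0.11 at day 8 and 2.61 ± 0.11 at day 29, and the 95% interval of the interaction, not adjusted for the number of clusters, ran from 0.05 to 0.69 (limma adjusted p = 0.264). For Hmox1, heme oxygenase, the interval ran from -0.38 to 0.69. Of 16 glutathione transferases 0 were called, with 8 interactions above 0 and 8 below and a median of -0.01. The most negative was Gstm3 at -2.02 ± 0.55 (limma adjusted p = 0.0725). Without the array labelled vehicle day 29 replicate 2, 2 of them were called, both negative. Gsta3 rose by 3.41 ± 0.17 and 4.00 ± 0.18, with an interval for the interaction of 0.09 to 1.09 (limma adjusted p = 0.251). Of 20 targets of CAR and PXR, Ces2e and Ces2a were called positive and Gadd45b negative, as were 0.472% and 0.304% of all clusters. The median of this list was 0.17. Cyp2b1, a P450 induced through CAR, rose by 1.68 ± 0.17 at day 8 and 1.99 ± 0.18 at day 29, and its interval of -0.21 to 0.83 includes 0. Aldo-keto reductases had a median of 0.15 and 0 calls among 16, with Akr1b8 at 0.71 ± 0.32 (limma adjusted p = 0.296). Without the array labelled vehicle day 29 replicate 2, 1 aldo-keto reductase was called.

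A second set of genes was much higher in treated animals of day 29 than in any other group. Gna14 encodes a G protein alpha subunit of the Gq class. Gna14 ran from -0.43 to 0.00 (median -0.21) in vehicle and from -0.13 to 0.40 (median 0.13) in treated animals at day 8. In the day 29 groups the vehicle animals lay at -0.38 to -0.02 (median -0.29) and the treated ones at 0.97, 0.93, 0.92, 1.14 and 1.28. All 5 treated animals of day 29 lay above every animal of these other groups. The rise was 0.34 ± 0.11 at day 8 and 1.31 ± 0.12 at day 29, with an interaction of 0.97 ± 0.17 (limma adjusted p = 0.00475). Sema3c, a secreted semaphorin that guides cell migration, ran from -0.34 to 0.05 (median -0.19) in vehicle and from -0.02 to 0.28 (median 0.13) in treated animals at day 8. On day 29 the vehicle animals lay at -0.36 to 0.01 (median -0.14) and the treated ones at 1.06, 0.84, 0.66, 1.72 and 1.80. Sema3c too was higher in all 5 than in any animal of these other groups. Its value at day 8 did not pass the test (0.29 ± 0.15, limma adjusted p = 0.209), it rose by 1.36 ± 0.16 at day 29, and the interaction was 1.07 ± 0.22 (limma adjusted p = 0.0245). Mmd, a membrane protein named for its rise in maturing macrophages, rose on both days, by 0.64 ± 0.14 and 1.67 ± 0.15, and the treated groups of the 2 days did not overlap. The interaction of Mmd was 1.03 ± 0.20 (limma adjusted p = 0.0168). Animals given 200 mg/kg for 28 doses averaged 0.32 for Gna14, 0.07 for Sema3c and -0.09 for Mmd. The calls of all 3 held in the 23 fits that left out an animal, and for Gna14 the adjusted p was 0.0508 with quantile normalization.

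The largest positive interaction among called clusters, 1.68 ± 0.25, belonged to transcript cluster 10902180, for which the annotation gives no single gene symbol (limma adjusted p = 0.00309). It rose by 1.26 ± 0.17 at day 8 and by 2.95 ± 0.18 at day 29, and it was named here after its values were seen. For Car2 and Tuba4a the vehicle animals of the 2 days did not overlap. Car2, a carbonic anhydrase that interconverts carbon dioxide and bicarbonate, averaged -0.13 ± 0.22 (SD, n = 6) in vehicle animals at day 8 and -0.74 ± 0.27 (SD, n = 6) at day 29, and the treated means were 0.27 and 0.67. Its interaction was 1.01 ± 0.20 (limma adjusted p = 0.0168). Tuba4a, an alpha-tubulin, had treated means of 0.40 and 0.43 and vehicle means of 0.01 and -0.88, an interaction of 0.93 ± 0.21 (limma adjusted p = 0.0321). The Tuba4a call was lost without vehicle day 29 replicate 3, 2000 mg/kg day 8 replicate 1 or 2000 mg/kg day 29 replicate 4 or 5 (adjusted p up to 0.0696), and with quantile normalization its adjusted p was 0.0508. Prlr, the prolactin receptor, had an interaction of 1.19 ± 0.37 that did not pass (limma adjusted p = 0.117).

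**Figure D3:**
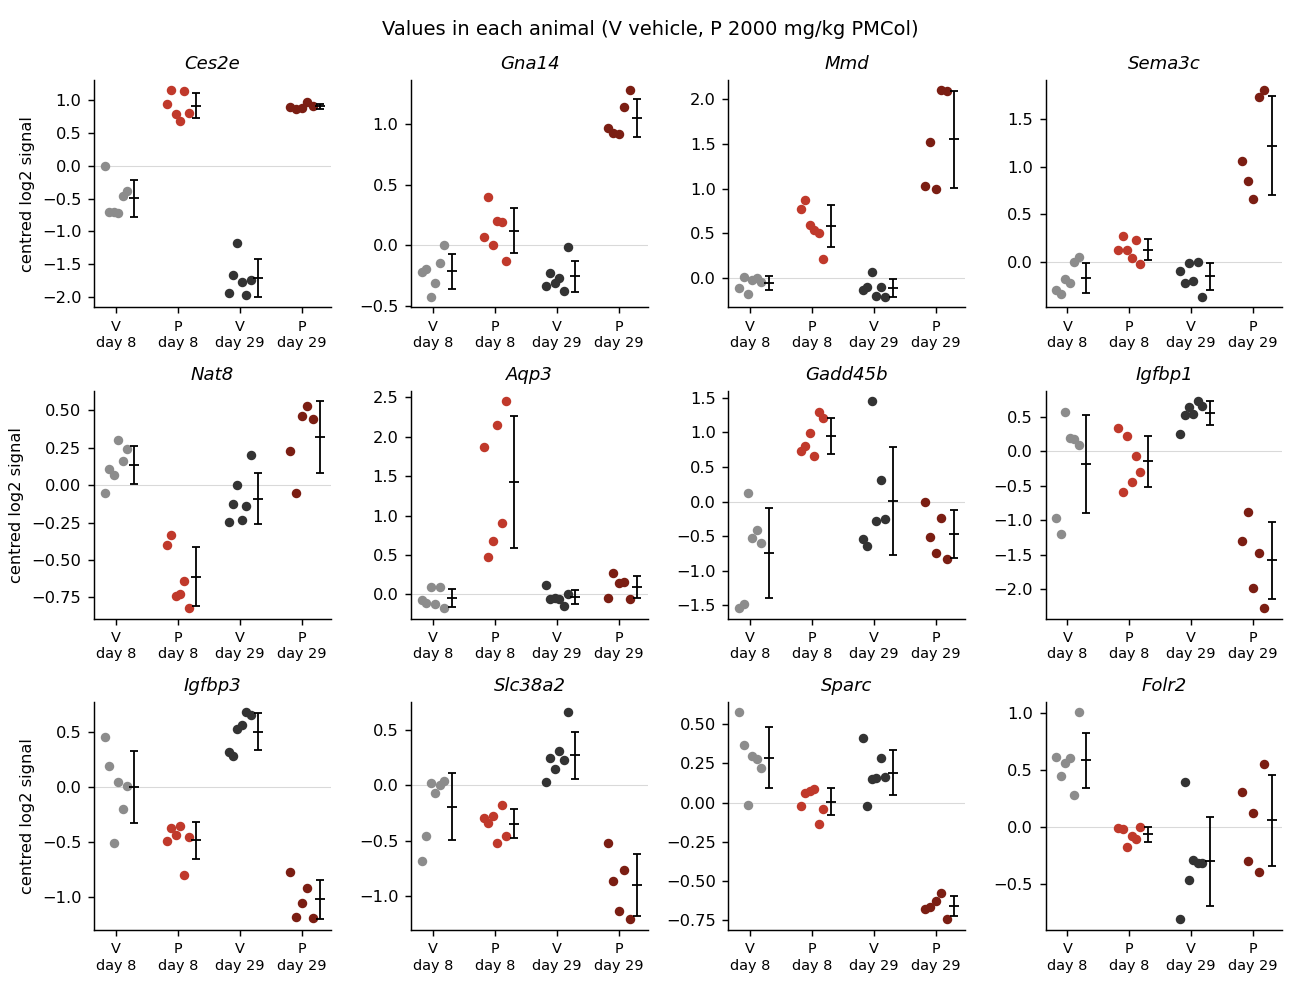
Each panel shows 1 gene and each point 1 animal, with the centred log2 signal on the vertical axis and the groups vehicle (V) and 2000 mg/kg PMCol (P) of both days on the horizontal axis. Dashes with bars give the group mean and SD (n = 6, or n = 5 for P at day 29). Ces2e differs between the days in the vehicle animals, Gna14, Mmd and Sema3c in the treated ones, and Igfbp1, Igfbp3 and Slc38a2 lie low in treated animals of day 29. Igfbp1, Igfbp3 and Slc38a2 also have higher means in vehicle animals of day 29 than of day 8.

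Other genes were raised at day 8 and not at day 29. Aqp3, a water and glycerol channel, ran from -0.17 to 0.10 (median -0.09) in vehicle and from 0.47 to 2.45 (median 1.39) in treated animals at day 8. After 28 doses the vehicle animals lay at -0.15 to 0.12 (median -0.05) and the treated ones at -0.04, 0.27, 0.14, 0.16 and -0.05. It rose by 1.47 ± 0.22 at day 8 with no overlap of the groups, and at day 29, where the groups overlapped, its value was 0.13 ± 0.23 (limma adjusted p = 0.757). The interaction was -1.34 ± 0.31 (limma adjusted p = 0.0373). Cluster 10825169, without a single gene symbol and named after its values were seen, had a similar pattern, with 1.77 ± 0.19 at day 8, 0.01 ± 0.20 at day 29 and an interaction of -1.77 ± 0.28 (limma adjusted p = 0.00423). Gadd45b, a stress-inducible gene that also answers to CAR, ran from -1.54 to 0.13 (median -0.57) in vehicle and from 0.66 to 1.30 (median 0.90) in treated animals at day 8. In the day 29 groups the vehicle animals lay at -0.64 to 1.45 (median -0.27) and the treated ones at 0.00, -0.51, -0.74, -0.24 and -0.83. The treated animals of day 8 all lay above both the vehicle animals of that day and the treated animals of day 29. It rose by 1.69 ± 0.29 at day 8, stood at -0.47 ± 0.30 at day 29 (limma adjusted p = 0.305), and had an interaction of -2.16 ± 0.42 (limma adjusted p = 0.0144).

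Apold1, an endothelial early response gene, rose by 0.82 ± 0.22 at day 8 and fell by 0.66 ± 0.23 at day 29. Plce1, a phospholipase C, rose by 0.50 ± 0.11 and fell by 0.42 ± 0.12. Their interactions were -1.47 ± 0.31 and -0.92 ± 0.16 (limma adjusted p = 0.0259 and 0.00509). Among 34 PPAR-alpha targets, genes of fatty acid burning, Aqp3 alone was called, 27 interactions were below 0 and 7 above, and the median was -0.11. In treated animals, 20 of the 34 were lower at day 29 than day 8, as were 1.19% of all clusters, and 1 was higher. In vehicle animals 6 were lower, as were 1.77% of all clusters, and 0 were higher. The mean of the list per animal ran from -0.04 to 0.14 in vehicle and 0.38 to 0.77 in treated animals at day 8. At day 29 it ran from -0.23 to 0.06 in vehicle and 0.04 to 0.23 in treated animals. Acot1, a cytosolic thioesterase, rose by 4.85 ± 0.34 at day 8 and 2.90 ± 0.36 at day 29, and its interaction of -1.94 ± 0.50 narrowly missed the threshold (limma adjusted p = 0.0594). The number of called PPAR-alpha targets ran from 0 to 4 when 1 animal was left out, and was 3 without the array labelled vehicle day 29 replicate 2. The calls of Gadd45b and Plce1 held in all 23 such fits. Apold1 was lost without 2000 mg/kg day 8 replicate 1 (adjusted p = 0.0506) and with quantile normalization (0.0614), and Aqp3 in 14 of them (adjusted p up to 0.0718).

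The largest negative interaction among called clusters, -2.62 ± 0.58, belonged to cluster 10813949, which has no single gene symbol and was named after its values were seen (limma adjusted p = 0.0307). Its group means were -0.79 and 0.84 in vehicle and 0.02 and -0.97 in treated animals at days 8 and 29. Igfbp1 encodes a secreted binding protein for insulin-like growth factors, and insulin represses it in liver. Igfbp1 ran from -1.19 to 0.56 (median 0.13) in vehicle and from -0.59 to 0.33 (median -0.19) in treated animals at day 8. Of the day 29 animals, the vehicle animals lay at 0.24 to 0.72 (median 0.59) and the treated ones at -1.30, -0.88, -1.98, -1.47 and -2.28. At day 8 the groups overlapped, and at day 29 all 5 treated animals lay below every vehicle animal. The difference was 0.05 ± 0.25 at day 8 and -2.13 ± 0.26 at day 29, and the interaction -2.18 ± 0.37 (limma adjusted p = 0.00458). Its neighbour Igfbp3, the main circulating binding protein, ran from -0.52 to 0.45 (median 0.03) in vehicle and from -0.81 to -0.36 (median -0.45) in treated animals at day 8. At day 29 the vehicle animals lay at 0.28 to 0.67 (median 0.54) and the treated ones at -0.77, -1.19, -1.06, -0.92 and -1.19. It fell by 0.49 ± 0.11 at day 8 and by 1.53 ± 0.12 at day 29, an interaction of -1.04 ± 0.17 (limma adjusted p = 0.00423). Between the days, Igfbp3 was higher at day 29 by 0.50 ± 0.11 in vehicle animals and lower by 0.54 ± 0.12 in treated ones (limma adjusted p = 0.0191 and 0.0118). For Igfbp1 this day difference was 0.74 ± 0.25 in vehicle animals and -1.44 ± 0.26 in treated ones (limma adjusted p = 0.099 and 0.00251). The calls of Igfbp1 and Igfbp3 held in all 23 fits that left out an animal.

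The promoters of Igfbp1 and of Nfkbia, which encodes the inhibitor of NF-kappaB, are shown because both genes were lower than vehicle at day 29 and each window holds the core of an element for which the gene is known. They are RefSeq sequences of build GRCr8, from 250 bases before to 50 bases after the start, 5′ to 3′ on the gene's strand, at chr14:86261027-86261326, plus strand for Igfbp1 and chr6:78597023-78597322, minus strand for Nfkbia. Capitals mark CAAAACA, the core of the insulin response element, in Igfbp1 and the kappaB letters, GGG and TTTCC with any 2 bases between them, read here on the opposite strand, in Nfkbia. These letters on either strand occur in 6.28% and 1.53% of all 33469 promoters in the table.
Igfbp1: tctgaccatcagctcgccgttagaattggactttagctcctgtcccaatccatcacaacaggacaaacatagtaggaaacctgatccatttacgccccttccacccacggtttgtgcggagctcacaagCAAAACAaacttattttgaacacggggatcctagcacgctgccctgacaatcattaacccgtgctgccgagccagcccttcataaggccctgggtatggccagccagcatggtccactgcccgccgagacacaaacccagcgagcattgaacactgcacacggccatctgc
Nfkbia: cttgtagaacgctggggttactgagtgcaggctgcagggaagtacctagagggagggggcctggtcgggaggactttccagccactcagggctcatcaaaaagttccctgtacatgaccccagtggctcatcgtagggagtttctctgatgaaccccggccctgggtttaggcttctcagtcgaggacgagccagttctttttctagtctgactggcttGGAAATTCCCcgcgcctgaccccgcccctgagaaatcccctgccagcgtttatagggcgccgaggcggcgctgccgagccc

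Nfkbia ran from -1.18 to 0.56 (median 0.11) in vehicle and from -0.31 to 0.00 (median -0.07) in treated animals at day 8. By day 29 the vehicle animals lay at -0.03 to 0.74 (median 0.57) and the treated ones at -0.77, -0.50, -1.19, -0.63 and -1.17. Its value was 0.08 ± 0.22 at day 8 and it fell by 1.32 ± 0.23 at day 29 (interaction -1.40 ± 0.32, limma adjusted p = 0.0331). Jun, a subunit of the AP-1 factor, ran from -0.66 to 0.63 (median 0.01) in vehicle and from -0.64 to 1.02 (median -0.10) in treated animals at day 8. On day 29 the vehicle animals lay at 0.59 to 1.27 (median 0.90) and the treated ones at -0.54, -1.12, -0.83, -0.54 and -1.26. At day 29 every treated animal lay below every vehicle animal for both genes, and at day 8 the groups overlapped. The interaction of Jun was -1.76 ± 0.43 (limma adjusted p = 0.047). Vehicle animals of day 29 had the highest Jun mean, 0.92, against 0.04 in vehicle animals of day 8 and -0.24 in the 200 mg/kg animals of day 29. Ppp1r15a, which restores translation after stress, fell by 1.76 ± 0.25 at day 29 and had a value of -0.33 ± 0.24 at day 8, an interaction of -1.42 ± 0.35 (limma adjusted p = 0.047). Trib1, a pseudokinase that controls liver lipogenesis, fell on both days, by 0.49 ± 0.17 and 1.66 ± 0.17, with an interaction of -1.17 ± 0.24 (limma adjusted p = 0.0236).

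Of 27 measured immediate early genes 2 were called, Gadd45b and Jun, both negative, as were 0.304% of all clusters. Of the whole list 22 interactions were below 0 and 5 above, with a median of -0.28. The mean of the list per animal ran from -0.23 to 0.32 in vehicle and -0.30 to 0.15 in treated animals at day 8, from 0.11 to 0.56 in vehicle and -0.56 to -0.15 in treated animals at day 29, and from -0.39 to 0.55 in the 200 mg/kg animals. At day 29 every vehicle animal lay above every animal given 2000 mg/kg, and at day 8 the groups overlapped. The list's calls became 6 without the array labelled vehicle day 29 replicate 2 and 1 without replicate 1. Atf3, a stress-induced transcription factor, had the most negative value of the list, -2.75 ± 0.87, and did not pass (limma adjusted p = 0.129). Atf3 and Gstm3 were named after their values were seen. Egr1, another immediate early gene, fell on both days, by 2.07 ± 0.31 and 2.91 ± 0.33, and its interaction of -0.84 ± 0.45 did not pass (limma adjusted p = 0.396).

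Slc38a2, a carrier of neutral amino acids that is induced when they run short, ran from -0.68 to 0.04 (median -0.04) in vehicle and from -0.52 to -0.17 (median -0.32) in treated animals at day 8. After 28 doses the vehicle animals lay at 0.03 to 0.66 (median 0.24) and the treated ones at -0.52, -0.86, -1.14, -0.77 and -1.21. The groups overlapped at day 8 and were apart at day 29, and the interaction was -1.02 ± 0.17 (limma adjusted p = 0.00458). Spry1, which dampens growth factor signalling, had an interaction of -0.72 ± 0.12 (limma adjusted p = 0.00475) from -0.06 ± 0.09 at day 8 and -0.78 ± 0.09 at day 29. Tat, the glucocorticoid-induced tyrosine aminotransferase, went from -0.02 ± 0.06 to -0.44 ± 0.06, an interaction of -0.41 ± 0.08 (limma adjusted p = 0.0198). Vehicle animals were higher at day 29 than at day 8 by 0.46 ± 0.12 for Slc38a2, 0.36 ± 0.09 for Spry1 and 0.25 ± 0.06 for Tat (limma adjusted p = 0.0315, 0.0249 and 0.0187). The same difference in treated animals was -0.56 ± 0.12, -0.37 ± 0.09 and -0.16 ± 0.06 (limma adjusted p = 0.0107, 0.0204 and 0.16). In the lists for the ATF4 response and for glucocorticoid-responsive genes, the medians were -0.17 over 29 genes and -0.22 over 17. Of these lists 3 genes and 1 gene were called: Ppp1r15a and Slc38a2 were negative and Aldh1l2 positive in the first, and Tat was negative in the second. Of all clusters 0.304% were called negative and 0.472% positive. Interactions above and below 0 numbered 10 and 19 in the first list and 6 and 11 in the second. Without the array labelled vehicle day 29 replicate 2 the negative calls became 4 in each list. The ATF4 target Asns, asparagine synthetase, rose by 2.57 ± 0.19 at day 8 and 2.69 ± 0.19 at day 29, with an interval of -0.43 to 0.67 for the interaction.

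Clock-related genes moved in both directions. Dbp, a transcription factor whose level swings through the day, ran from -0.23 to 0.00 (median -0.13) in vehicle and from -0.14 to 0.55 (median 0.03) in treated animals at day 8. In the day 29 groups the vehicle animals lay at -0.86 to 0.23 (median -0.32) and the treated ones at 1.66, 0.43, 1.25, 0.85 and 1.28. The treated animals of day 29 all lay above the vehicle animals of that day, and the interaction was 1.21 ± 0.27 (limma adjusted p = 0.0324). Nfil3, a repressor that binds the same sites as Dbp, and Noct, a rhythmic phosphatase of the NADP cofactors, had interactions of -1.27 ± 0.31 and -1.94 ± 0.46 (limma adjusted p = 0.047 and 0.0404). Nfil3 fell by 1.41 ± 0.22 at day 29 and Noct by 1.32 ± 0.33. Of 15 clock genes these 3 were called, where 0.775% of all clusters were, and the median was 0.12. The time of day of killing was not given in the sources used here. In the 23 fits that left out an animal, calls were kept throughout for Slc38a2, Spry1 and Tat. They were lost for Jun in 20, Ppp1r15a in 20, Nfil3 in 19, Noct in 14, Nfkbia in 10 and Dbp in 9 of them, with adjusted p up to 0.0967, and for Trib1 without 2000 mg/kg day 29 replicate 5 (adjusted p = 0.0523). Jun and Ppp1r15a were among those lost without vehicle day 29 replicate 1 (adjusted p = 0.0598 and 0.0596), and all 6 were also lost with quantile normalization (adjusted p from 0.0621 to 0.124).

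In the list of the growth hormone and IGF axis, 4 of 22 genes were called, 2 in each direction, around a median of 0.08. Over all clusters 0.472% were called positive and 0.304% negative. Igfals, which holds IGF and Igfbp3 in a ternary complex in plasma, ran from -0.10 to 0.26 (median 0.15) in vehicle and from -0.97 to -0.40 (median -0.57) in treated animals at day 8. At day 29 the vehicle animals lay at 0.00 to 0.36 (median 0.22) and the treated ones at -0.05, 0.16, 0.11, -0.08 and 0.02. The groups were apart at day 8 and overlapped at day 29. It fell by 0.73 ± 0.07 at day 8, its value at day 29 was -0.16 ± 0.08 (limma adjusted p = 0.159), and the interaction was 0.57 ± 0.11 (limma adjusted p = 0.0129). Igfals and Igfbp3, partners in that complex, thus had interactions of opposite sign. Socs3, an inhibitor of cytokine receptors, had a value of -0.27 ± 0.15 at day 8, rose by 0.73 ± 0.16 at day 29 and had an interaction of 1.00 ± 0.22 (limma adjusted p = 0.0307). The Socs3 call was lost without vehicle day 8 replicate 2, vehicle day 29 replicate 5 or 2000 mg/kg day 8 replicate 1 (adjusted p up to 0.0548), and its adjusted p was 0.0518 with quantile normalization. Igf1 fell by 0.50 ± 0.05 and 0.44 ± 0.06 on the 2 days, with an interval of -0.10 to 0.22 for the interaction. Socs2, the feedback inhibitor of growth hormone signalling, had one of -1.12 to 0.83. Of 12 male-predominant genes 0 were called, with 11 interactions above 0, and 1 was called without the array labelled vehicle day 29 replicate 2. Dhrs7l1, a dehydrogenase family gene of that list, fell by 5.01 ± 0.31 at day 8 and 3.22 ± 0.32 at day 29 and just missed the threshold at 1.79 ± 0.45 (limma adjusted p = 0.0534). It passed in 5 of the 23 fits that left out an animal.

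Of a further set with positive interactions, all but Tm7sf2 were below vehicle by the test at day 8, and none was at day 29. Nat8, which acetylates cysteine conjugates to mercapturic acids, ran from -0.05 to 0.30 (median 0.13) in vehicle and from -0.82 to -0.34 (median -0.68) in treated animals at day 8. By day 29 the vehicle animals lay at -0.24 to 0.20 (median -0.13) and the treated ones at 0.23, -0.05, 0.46, 0.53 and 0.44. The groups were apart at day 8 and overlapped at day 29. It fell by 0.75 ± 0.14 at day 8 and rose by 0.41 ± 0.14 at day 29, an interaction of 1.16 ± 0.20 (limma adjusted p = 0.00475). The treated animals of the 2 days did not overlap. Slc39a4, a zinc importer, fell by 0.52 ± 0.09 at day 8 and stood at 0.08 ± 0.09 at day 29, an interaction of 0.60 ± 0.13 (limma adjusted p = 0.0307). Aldh1l2, a mitochondrial folate enzyme, fell by 0.48 ± 0.08 at day 8 and stood at 0.12 ± 0.09 at day 29 (interaction 0.60 ± 0.12, limma adjusted p = 0.0171). Nags, which makes the activator of the urea cycle, fell by 0.33 ± 0.10 at day 8 and stood at 0.27 ± 0.10 at day 29. Its interaction was 0.59 ± 0.14 (limma adjusted p = 0.0367). Between the days, Nags was lower at day 29 by 0.42 ± 0.10 in vehicle animals and stood at 0.17 ± 0.10 in treated ones (limma adjusted p = 0.0184 and 0.405). Tm7sf2, a sterol reductase of cholesterol synthesis, had an interaction of 0.85 ± 0.17 (limma adjusted p = 0.0171). Tm7sf2 stood at -0.30 ± 0.12 at day 8 and rose by 0.55 ± 0.12 at day 29, and it was the 1 gene called of 19 in its list, whose median was 0.24. Calls of Nat8, Aldh1l2 and Tm7sf2 held in all 23 fits that left out an animal. Slc39a4 was lost without 2000 mg/kg day 8 replicate 1 or 2000 mg/kg day 29 replicate 5, and Nags in 10 fits (adjusted p up to 0.0754), and both with quantile normalization (adjusted p = 0.0709 and 0.0745).

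**Figure D4:**
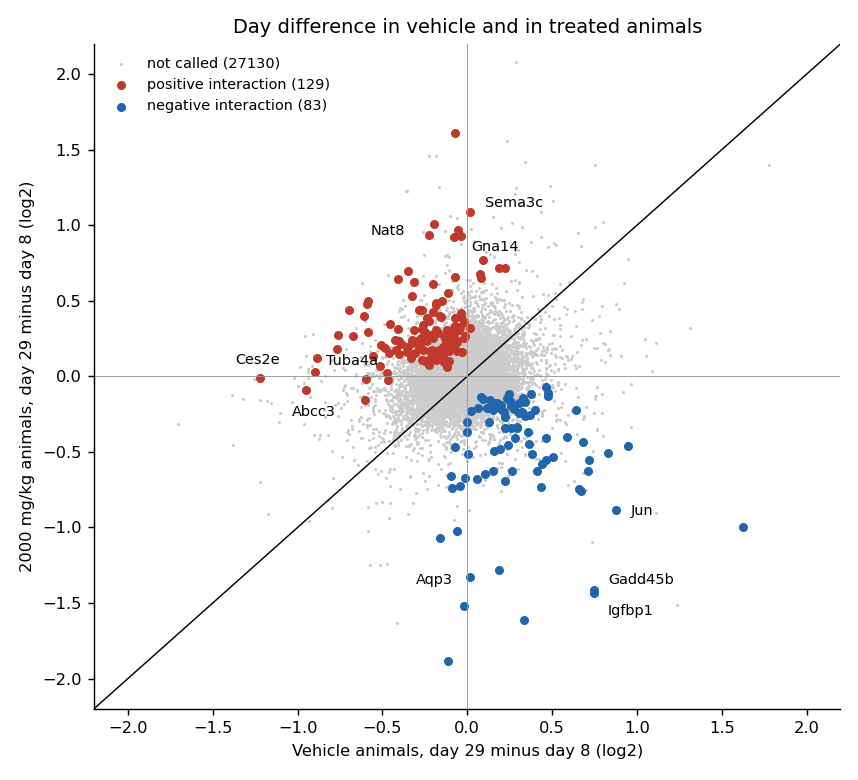
Each point is 1 transcript cluster, with the log2 difference between day 29 and day 8 in vehicle animals on the horizontal axis and in animals given 2000 mg/kg on the vertical axis. The interaction is the vertical distance from the black line of equal day differences. Ces2e, Abcc3 and Tuba4a lie to the left near 0 on the vertical axis, Gna14, Sema3c and Nat8 above 0, Aqp3 below 0, and Igfbp1, Gadd45b and Jun to the lower right.

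Genes of stellate cells and the extracellular matrix had mostly negative interactions. Of 35 measured genes 4 were called, all negative: Lrat, which stores retinol as esters, Tagln, an actin-binding protein of contractile cells, Sparc, a matrix glycoprotein, and Pth1r, the parathyroid hormone receptor. The list had 30 interactions below 0 and 5 above, and a median of -0.36. Of all clusters 0.304% were called with a negative interaction. Sparc ran from -0.01 to 0.57 (median 0.28) in vehicle and from -0.13 to 0.09 (median 0.02) in treated animals at day 8. At day 29 the vehicle animals lay at -0.02 to 0.41 (median 0.16) and the treated ones at -0.67, -0.66, -0.63, -0.57 and -0.74. Sparc fell by 0.28 ± 0.08 at day 8 and 0.85 ± 0.08 at day 29, and the groups overlapped at day 8 and not at day 29 (interaction -0.56 ± 0.11, limma adjusted p = 0.0166). Lrat fell by 0.53 ± 0.13 and 1.40 ± 0.14, an interaction of -0.87 ± 0.19 (limma adjusted p = 0.0324). Tagln and Pth1r had interactions of -0.62 ± 0.15 and -0.56 ± 0.13 (limma adjusted p = 0.0405 and 0.0361). Fewer cells of a type and less RNA per cell cannot be told apart in whole tissue. The mean of the list per animal ran from -0.12 to 0.33 in vehicle and -0.31 to -0.06 in treated animals at day 8, and from 0.09 to 0.42 and -0.41 to -0.24 at day 29. The Sparc call held in all 23 fits that left out an animal. Lrat was lost in 9, Pth1r in 10 and Tagln in 17 of them (adjusted p up to 0.0764). The number of calls in the list ran from 1 to 8, was 8 without the array labelled vehicle day 29 replicate 2 and 3 without replicate 1, and was 0 with quantile normalization (adjusted p from 0.0621 to 0.0818 for the 4).

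Kupffer cell and macrophage markers had positive interactions, and the vehicle animals of day 8 had the highest mean of the list. Of 32 markers 30 interactions were above 0 and 2 below, the median was 0.67, and 2 were called positive, as were 0.472% of all clusters. Folr2, a folate receptor of resident macrophages, ran from 0.28 to 1.00 (median 0.58) in vehicle and from -0.17 to 0.00 (median -0.05) in treated animals at day 8. On day 29 the vehicle animals lay at -0.81 to 0.39 (median -0.32) and the treated ones at 0.31, -0.30, 0.12, -0.40 and 0.55. Folr2 separated the groups at day 8 and not at day 29. It fell by 0.65 ± 0.16 at day 8, stood at 0.36 ± 0.17 at day 29 (limma adjusted p = 0.138) and had an interaction of 1.00 ± 0.23 (limma adjusted p = 0.0363). The highest day 29 vehicle value of Folr2, 0.39, was that of replicate 2. Siglec1, a sialic acid receptor of macrophages, had an interaction of 0.88 ± 0.20 (limma adjusted p = 0.0344), and Lilra5, a leukocyte receptor outside the list, one of 0.95 ± 0.21 (limma adjusted p = 0.0307). Clec4f, the Kupffer cell lectin, had a value of 0.97 ± 0.35 that did not pass (limma adjusted p = 0.186).

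The mean of the macrophage markers per animal ran from 0.26 to 0.88 in vehicle and -0.48 to 0.05 in treated animals at day 8. At day 29 it was 0.51 in the array labelled vehicle replicate 2, -0.42 to -0.13 in the other vehicle animals, -0.53 to 0.37 at 2000 mg/kg and -0.62 to 0.20 at 200 mg/kg. Between vehicle animals of the 2 days, 20 of the 32 markers were lower at day 29, where 1.77% of all clusters were, and between treated animals 0 rose and 0 fell. Without the array labelled vehicle day 29 replicate 2 the interaction called 7 markers and the median was 0.81, and without replicates 1 and 2 it called 5. Over the 23 fits that left out an animal the number ran from 0 to 7. Folr2 was lost in 15 and Siglec1 in 12 of the 23 fits that left out an animal, and Lilra5 without 2000 mg/kg day 29 replicate 1 or 5 (adjusted p up to 0.0764). Of the lists for endothelial cells (20 genes), T, B and NK cells (29), erythrocytes (12), neutrophils (14) and bile ducts (16), 0 genes were called, with medians of 0.18, 0.11, 0.19, 0.01 and 0.03. Without the array labelled vehicle day 29 replicate 2, 1 endothelial and 1 T, B or NK cell marker were called.

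All 31 measured genes of the interferon response had an interaction above 0, with a median of 0.51, and 4 were called. Over all clusters the median was 0.01, and 0.472% were called with a positive interaction. The list's mean per animal ran from -0.23 to 0.32 in vehicle and -0.78 to 0.23 in treated animals at day 8, and from -0.35 to 0.27 and 0.06 to 0.38 at day 29. By this mean the groups overlapped on both days, and 1 treated animal of day 8, replicate 3, lay above the other 5. Irf1, a transcription factor induced by interferon gamma, ran from 0.06 to 0.62 (median 0.32) in vehicle and from -0.64 to 0.07 (median -0.27) in treated animals at day 8. After 28 doses the vehicle animals lay at -0.40 to 0.27 (median 0.01) and the treated ones at 0.26, 0.44, 0.87, -0.25 and 0.29. The groups overlapped on both days. It fell by 0.62 ± 0.14 at day 8, stood at 0.32 ± 0.15 at day 29 (limma adjusted p = 0.145) and had an interaction of 0.94 ± 0.21 (limma adjusted p = 0.0324). Isg20, an interferon-induced exonuclease, unlike the other 3 called, rose on both days, by 0.79 ± 0.10 and 1.45 ± 0.10, with an interaction of 0.66 ± 0.14 (limma adjusted p = 0.0261). Oas2, a sensor of double-stranded RNA, and Stat2, a subunit of the interferon-activated factor, had interactions of 0.52 ± 0.13 and 0.36 ± 0.09 (limma adjusted p = 0.0456 and 0.0411). In the 23 fits that left out an animal, the calls were lost for Irf1 in 7, Oas2 in 17 and Stat2 in 15 (adjusted p up to 0.0917). Isg20 was lost without 2000 mg/kg day 8 replicate 1 or 2000 mg/kg day 29 replicate 5 (adjusted p up to 0.0586). The number of calls in the list ran from 0 to 7, and was 1, Irf1, with quantile normalization. What part the macrophage markers have in these values was not tested.

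The promoters of Irf1 and Isg20 are shown because they belong to this list and each window holds letters of an element through which interferons act. They lie at chr10:38417685-38417984, plus strand and chr1:142239809-142240108, plus strand in GRCr8, again from RefSeq with 250 bases before and 50 after the start. Capitals mark the interferon gamma activated site, TTCNNNGAA, in Irf1 and the interferon-stimulated response element, GAAA repeated after any 2 bases, in Isg20, which occur on either strand in 8.87% and 3.92% of all promoters in the table. A match describes the sequence and is not a measured binding site.
Irf1: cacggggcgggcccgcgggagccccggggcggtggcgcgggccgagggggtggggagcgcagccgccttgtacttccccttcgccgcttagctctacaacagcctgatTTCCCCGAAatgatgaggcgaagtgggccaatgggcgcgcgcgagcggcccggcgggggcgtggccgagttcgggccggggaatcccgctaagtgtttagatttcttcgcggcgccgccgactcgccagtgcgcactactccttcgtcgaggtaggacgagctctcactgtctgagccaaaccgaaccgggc
Isg20: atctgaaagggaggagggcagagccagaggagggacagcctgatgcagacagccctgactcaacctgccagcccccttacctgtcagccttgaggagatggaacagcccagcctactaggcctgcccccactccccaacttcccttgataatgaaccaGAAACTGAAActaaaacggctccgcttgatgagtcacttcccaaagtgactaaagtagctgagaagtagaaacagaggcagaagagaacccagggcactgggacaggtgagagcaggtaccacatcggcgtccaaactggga

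**Figure D5:**
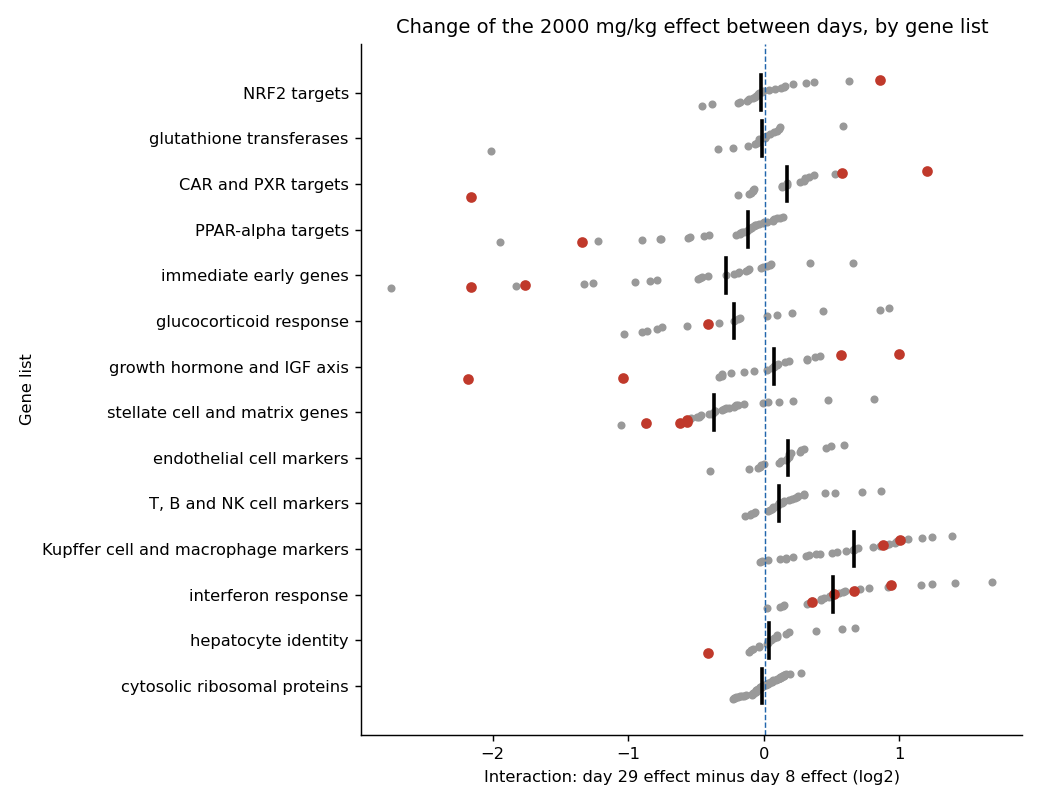
Each point is 1 measured gene of the list named on the vertical axis, with its interaction on the log2 scale on the horizontal axis. Red points passed the threshold, black bars are list medians and the dashed line is the median over all clusters, 0.01. The medians of the macrophage and interferon lists, 0.67 and 0.51, lie to the right and those of the stellate cell and immediate early lists, -0.36 and -0.28, to the left, and that of the ribosomal proteins is at -0.01.

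Many processes gave no call. Of the 45 lists 24 had 0 called members by limma, and 34 of the 971 measured genes on any list were called, where 0.775% of all clusters were. Cytosolic ribosomal proteins (55 genes), proteasome subunits (32), heat shock proteins (25), oxidative phosphorylation (40) and DNA replication and mitosis (42) had medians of -0.01, -0.07, -0.01, 0.06 and 0.04. Complement and coagulation genes had a median of 0.10 over 36, and bile acid genes 0.02 over 18. Without the array labelled vehicle day 29 replicate 2, 1 complement or coagulation gene was called in each direction. Without replicates 1 and 2 of that group, 1 gene of DNA replication and mitosis was called. Cyp7a1, the first enzyme of bile acid synthesis, had an interval of -2.04 to -0.04 (limma adjusted p = 0.321). For Alb, serum albumin, the interval was -0.15 to 0.09, and for Ttpa, the vitamin E transfer protein, -0.23 to 0.08. Cyp4f1, a fatty acid hydroxylase in the list for vitamin E and K handling, was the 1 of 22 called there, at 0.30 ± 0.07 (limma adjusted p = 0.0456), and it fell by 0.53 ± 0.05 at day 8 and 0.23 ± 0.05 at day 29. That call was lost in 16 of the 23 fits that left out an animal and with quantile normalization (adjusted p = 0.0877).

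Other called genes outside these groups were lower than vehicle at day 29, or in 1 case at day 8. Hnf4g, a nuclear receptor related to the hepatocyte factor Hnf4a, had a value of -0.14 ± 0.15 at day 8, fell by 1.11 ± 0.15 at day 29 and had an interaction of -0.97 ± 0.21 (limma adjusted p = 0.0313). Adamts1, a secreted protease of the matrix, went from -0.04 ± 0.14 to -0.95 ± 0.15, an interaction of -0.91 ± 0.20 (limma adjusted p = 0.0324). Rnf125, a ubiquitin ligase, went from 0.04 ± 0.13 to -0.85 ± 0.14, an interaction of -0.89 ± 0.19 (limma adjusted p = 0.0256). Slc30a10, a manganese exporter, fell by 0.58 ± 0.07 at day 8 and stood at -0.13 ± 0.08 at day 29 (interaction 0.46 ± 0.10, limma adjusted p = 0.034). With Slc39a4 it made up the 2 calls, both positive, among 23 genes of metal handling, which had a median of 0.04. Of all clusters 0.472% were called with a positive interaction. These calls were lost for Hnf4g in 6, Adamts1 in 5, Rnf125 in 2 and Slc30a10 in 12 of the 23 fits that left out an animal (adjusted p up to 0.0696). Quantile normalization gave adjusted p from 0.0473 to 0.0809 for the 4.

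Several strongly regulated genes did not pass in the interaction, and their unadjusted 95% intervals give the range of differences that these arrays allow. The aldo-keto reductase Akr1b7 rose by 2.69 ± 0.24 at day 8 and 3.78 ± 0.25 at day 29, with a 95% interval of 0.38 to 1.80. The intervals were 0.11 to 0.94 for the esterase Ces2c, -0.11 to 0.78 for Cyp2b2, -0.32 to 0.55 for the glutathione transferase Gstp1 and -0.26 to 1.98 for Cyp1a1, the marker of aryl hydrocarbon receptor activity. Of genes of fatty acid and glycerol uptake raised on both days, the glycerol channel Aqp7 and the fatty acid transporter Cd36 had intervals of -1.45 to -0.08 and -1.10 to 0.22, and Cyp4a1, a PPAR-alpha target that did not pass on either day, one of -0.37 to 0.05. Scd, the stearoyl-CoA desaturase, and Insig1, which holds back sterol synthesis, stood at -2.41 ± 0.34 and -1.33 ± 0.18 at day 29, with intervals of -2.29 to -0.34 and -1.36 to -0.34 for the interaction. Another Insig1 cluster had an interaction of -1.01 ± 0.29, which did not pass either (limma adjusted p = 0.0879).

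Among genes set by growth hormone and sex, Mup5, a urinary protein, and Cyp2c11, the male P450, had intervals of -0.24 to 1.17 and -0.12 to 0.85. Car3, a carbonic anhydrase abundant in liver, fell by 3.32 ± 0.30 at day 8 and 1.99 ± 0.31 at day 29, and its interval ran from 0.44 to 2.21. Sds, the serine dehydratase, and Stac3, an adaptor protein, fell by more than 2 on the log2 scale on both days, with intervals of -1.25 to 0.57 and -1.45 to 0.69. Fkbp5, which glucocorticoids induce, stood at 0.47 ± 0.29 at day 8 and rose by 1.33 ± 0.30 at day 29 (limma adjusted p = 0.31 and 0.00182). The Fkbp5 interval was -0.0039 to 1.72, and those of the cell cycle genes Cdkn1a and Ccnd1 were -0.82 to 0.37 and -0.07 to 0.75. The collagen gene Col1a1 and the collagen cross-linking enzyme Lox had intervals of -0.55 to -0.01 and -1.92 to -0.19, and Cd14, the lipopolysaccharide co-receptor, one of -0.18 to 0.61. Among these uncalled genes the unadjusted intervals of Akr1b7, Ces2c, Aqp7, Scd, Insig1, Car3, Col1a1 and Lox exclude 0, though none of them passed over all clusters (limma adjusted p from 0.0952 to 0.323).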

How the data were processed

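Per the labels' protocols and the submitters' processing notes, RNA of each liver was hybridised to 1 Affymetrix whole-transcript array, and PLIER and MAS5 are named without version or role. The deposited values are log2 signals of 27342 transcript clusters, which the authors had centred so that every cluster's median is 0. The normalization between arrays is not given in the sources used here. An independent group of animals served each dose and day.

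A model with 5 groups was fitted to all 29 arrays with limma 3.58.1 in R 4.3.3 (moderated, two-sided, Benjamini-Hochberg over 27342 clusters, threshold 0.05). All 4 component differences come from the same fit and share animals with the interaction, so they are given side by side. Nothing was filtered. Symbols come from the platform annotation, 1 cluster per gene, preferring one whose values, judged by their rounding, were stored at 8 or above on every array. The genes named were the 15 largest called interactions of each sign with a symbol, up to 4 called members of each of 45 lists, and a set of genes of this response whatever their change (84 in all). Provisional symbols, such as those starting with LOC or RGD, were left out of the 15 of each sign. Members and lists were chosen with earlier results of these data known. The fit was tested on simulated normal data with the same spread in every group. Those data held no arrays that stood apart, so the test does not cover the arrays of the day 29 vehicle group that did. Promoters of 59 of the 84 genes were found in RefSeq's table (GRCr8), and 14 motifs were searched on both strands; those shown were chosen after the values were seen. The alternatives were other normalizations, variance models, thresholds, probe sets and samples, including each animal left out. The number of arrays limits the precision.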

Additional observations from a re-analysis of the deposited data

Results flagged for a closer look

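The effect of 2000 mg/kg differed between day 8 and day 29 by limma's test of the interaction for 212 clusters, and 47 of the genes named above were among them. The log2 interactions above 0 were those of Ces2e (1.21), Dbp (1.21), Nat8 (1.16), Sema3c (1.07), Mmd (1.03), Car2 (1.01), Socs3 (1.00), Folr2 (1.00), Gna14 (0.97), Lilra5 (0.95), Irf1 (0.94), Tuba4a (0.93), Siglec1 (0.88), Abcc3 (0.86), Tm7sf2 (0.85), Isg20 (0.66), Slc39a4 (0.60), Aldh1l2 (0.60), Nags (0.59), Ces2a (0.58), Igfals (0.57), Oas2 (0.52), Slc30a10 (0.46), Stat2 (0.36) and Cyp4f1 (0.30). Those below 0 were of Igfbp1 (-2.18), Gadd45b (-2.16), Noct (-1.94), Jun (-1.76), Apold1 (-1.47), Ppp1r15a (-1.42), Nfkbia (-1.40), Aqp3 (-1.34), Nfil3 (-1.27), Trib1 (-1.17), Igfbp3 (-1.04), Slc38a2 (-1.02), Hnf4g (-0.97), Plce1 (-0.92), Adamts1 (-0.91), Rnf125 (-0.89), Lrat (-0.87), Spry1 (-0.72), Tagln (-0.62), Sparc (-0.56), Pth1r (-0.56) and Tat (-0.41). The adjusted p of each gene stands in the report.

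In 340 groups of 5 or 6 animals, 1 for each named gene and group and 1 for the SD of the arrays of each group, 17 held a sample whose gap to the nearest other exceeded Dixon's 95% critical value, and chance gives about 1 in 20. The SD of vehicle day 29 replicate 1 over all clusters, 0.287, was 1 of them. The centred log2 values of the others were Akr1b8 at 0.31 in vehicle day 29 replicate 1, Cyp2b1 at -1.86 in vehicle day 8 replicate 5, Nfil3 at -1.09 in 2000 mg/kg day 29 replicate 5 and Spry1 at 0.74 in vehicle day 29 replicate 6. They include also Igfbp3 at -0.81 in 2000 mg/kg day 8 replicate 5, Tat at -0.24 in 2000 mg/kg day 8 replicate 4, Pth1r at -0.63 in 2000 mg/kg day 8 replicate 5 and Isg20 at 1.00 in 2000 mg/kg day 8 replicate 3. Further values were Isg20 at -0.64 in vehicle day 29 replicate 1, Tm7sf2 at 0.61 in vehicle day 8 replicate 2, Clec4f at -0.91 in 2000 mg/kg day 8 replicate 4 and Clec4f at 0.89 in vehicle day 29 replicate 2. The last were Aqp7 at -0.11 in 2000 mg/kg day 29 replicate 3, Scd at 0.27 in 2000 mg/kg day 8 replicate 2, Cyp2b2 at 0.23 in 2000 mg/kg day 8 replicate 6 and Fkbp5 at 0.05 in 2000 mg/kg day 29 replicate 3.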

How the results depend on the processing

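The interaction's 212 calls became 102 with quantile normalization (99 shared), 673 with array quality weights, 620 without vehicle day 29 animals 1 and 2 (added after the data were seen), 28 at an adjusted p of 0.01 and 36 with a change of at least 1. The cause was not tested, beyond the stricter thresholds. Leaving out 1 animal gave 76 to 563 calls. Day 8 went from 5096 to 3244 at 0.01, 213 with a change of at least 1, 3243 on clusters with stored values of 8 or more (fewer clusters, added later) and 4400 to 5605 with 1 animal out. Day 29 went from 5910 to 3754, 271, 3549 and 4791 to 6313 in the same order. Vehicle days went from 746 to 77 at 0.01, 20 with a change of at least 1, 1773 with weights, 1374 without animals 1 and 2 and 254 to 2141 with 1 out, and treated days from 839 to 270, 34, 1325 with weights and 535 to 1073. No called cluster changed sign in any alternative fitted on all clusters. Quantile normalization ended 25 of the 47 calls among the named genes. With the replicate number as a block the interaction called 224 clusters, 171 of them shared; same-number correlations of -0.282 to 0.195 over 33 pairs gave no reason to take the numbers as pairs. The number of arrays limits the precision, and centred values give no signal over background.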

Other observations

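Several metabolic and secretory gene lists not described above held 0 called genes by limma. Their median interactions were 0.03 over 22 genes of fatty acid synthesis, 0.06 over 26 genes of glucose metabolism, 0.06 over 24 genes of endoplasmic reticulum folding, -0.02 over 27 genes of the acute phase and 0.13 over 20 genes of pericentral hepatocytes. The others were -0.02 over 28 genes of lipid export, -0.03 over 18 genes of tRNA charging, 0.03 over 17 genes of glucuronidation and sulfation and 0.09 over 7 genes of the aryl hydrocarbon receptor. Without the array labelled vehicle day 29 replicate 2, 1 gene of glucuronidation and sulfation was called. The list for p53 and growth arrest, 19 genes, had a median of -0.16 with Gadd45b as its 1 call, and that for ERK feedback and cyclin D1, 16 genes, a median of -0.14 with Spry1 as its call. Periportal hepatocyte genes had a median of -0.08 over 18, and those of the urea cycle and amino acid breakdown 0.03 over 45, where Tat and Nags were called in opposite directions. The median over all clusters was 0.01.

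Of the 212 called clusters, 77 had no single gene symbol in the annotation used here, among them the largest positive and the largest negative interaction.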
